A study of Mus musculus with 4 samples.

Results

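The mouse mitochondrial genome encodes 37 genes: 13 mRNA genes for subunits of the respiratory chain and ATP synthase, 2 rRNA genes for the mitochondrial ribosome and 22 tRNA genes. These 37 were taken from a table of 47633 genes as every gene whose symbol begins with mt-, and each of them had a row. The cells were mouse embryonic stem (ES) cells of strain 129S2/SvPas, grown with leukaemia inhibitory factor (LIF) on mitomycin C-treated fibroblasts of C57/BL6 embryos. LIF is the cytokine that holds ES cells undifferentiated. The 4 libraries were 1 from cells kept for 2 days without LIF (called LIF withdrawal here), 1 labelled embryoid body (EB) after 5 days without LIF, and 2 of ES cells, ES 1 and ES 2. All came from total RNA made with a total RNA library kit, and neither derived condition had a replicate. The labels do not say that ES 1 and ES 2 came from separate cultures. A p-value here therefore reflects just how far these samples spread, with information shared across genes, and that spread may be technical.

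Each strand of the circular mitochondrial genome is copied into a long transcript that spans many genes. The tRNA genes lie between most of the others, and excision of the tRNAs releases the rRNAs and mRNAs. One strand's transcript holds both rRNAs and most mRNAs, with the rRNAs near its start. The opposite transcript holds the remaining tRNAs and a single mRNA, mt-Nd6. Here 12 mRNA genes and 14 tRNA genes were annotated on the plus strand, and mt-Nd6 and 8 tRNA genes on the minus strand. Nuclear genomes also carry inserted stretches of mitochondrial DNA, whose transcripts and reads can be near-identical to those of the mitochondrial genes.

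Levels are FPKM, fragment counts scaled by gene length and by the library's total, as the authors deposited them. Depth was estimated at 18.1 M fragments for LIF withdrawal, 26.4 M for EB, 31.5 M for ES 1 and 26.4 M for ES 2. Pluripotency markers were present in every library, with a summed level over 10 genes of 2490 FPKM after LIF withdrawal, 2880 FPKM in EB, 2360 FPKM in ES 1 and 2350 FPKM in ES 2. The summed level of 15 markers of differentiating lineages was 20.0 FPKM after LIF withdrawal, 11.4 FPKM in EB, 17.3 FPKM in ES 1 and 16.4 FPKM in ES 2. The label EB was thus not matched by a higher sum. Nes, at 2.11 FPKM in EB against 7.11 FPKM in ES 1 and 6.92 FPKM in ES 2, made up much of that difference. In EB, Gsc, Foxa2, Sox7, Kdr and Fgf5 were above both ES libraries at 1.95 FPKM or less. Mixl1 and Sox17 were between them and the others below both. The summed level of 15 fibroblast markers was 555 FPKM after LIF withdrawal, 377 FPKM in EB, 388 FPKM in ES 1 and 386 FPKM in ES 2. Fn1 and Vim made up most of each sum. All but Twist1 were above both ES libraries after LIF withdrawal, with Postn at 22.7 FPKM, against 2.39 FPKM in ES 1 and 2.79 FPKM in ES 2. In EB, Col1a1, Col1a2, Col5a2, S100a4, Vim and Twist1 were below both, Postn was between them and the others were above both. Dcn was at 11.1 FPKM in EB, against 0.695 FPKM in ES 1 and 0.664 FPKM in ES 2. None of the 15 was at 0 after LIF withdrawal or in EB, while Fap was at 0 in both ES libraries and Lum in ES 2. The part of fibroblast RNA in the results below was not tested, and fewer cells of a type cannot be told apart from less RNA per cell.

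All 37 members fall into 3 sets by their level. The 22 tRNA genes were listed at 0 in all 4 libraries. They are 59 to 75 nt long, and each of the 999 other genes of at most 75 nt in the table was also listed at 0 in every library, among them 606 miRNA and 117 snoRNA genes. The shortest gene with a value above 0 in any library had 107 nt of exons. The tRNA values therefore carry no measurement of these tRNAs, and no tRNA was tested or called. One of them, mt-Tl1, a leucine tRNA gene between mt-Rnr2 and mt-Nd1 at chrM:2676-2750 on the plus strand (GRCm38), is shown for its size:
mt-Tl1: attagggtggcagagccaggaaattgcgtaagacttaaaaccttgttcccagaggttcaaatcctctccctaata

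The second set was 8 genes at 100 FPKM or more in every library: mt-Rnr2, mt-Nd1, mt-Nd2, mt-Co1, mt-Nd4, mt-Nd5, mt-Nd6 and mt-Cytb. The third was mt-Rnr1 and the 6 mRNA genes mt-Co2, mt-Atp8, mt-Atp6, mt-Co3, mt-Nd3 and mt-Nd4l, with at most 38.1 FPKM in any library. The 6 mRNA genes of this set are neighbours on the genome, and the plot of levels in genome order shows them as one low stretch between mt-Co1 and mt-Nd4. mt-Co1, mt-Co2 and mt-Co3 encode the catalytic core of the same enzyme, cytochrome c oxidase. After LIF withdrawal mt-Co1 was at 7989.7 FPKM, mt-Co2 at 0.470 FPKM and mt-Co3 at 2.78 FPKM. In ES 1 mt-Co1 was at 6188 FPKM, mt-Co2 at 4.73 FPKM and mt-Co3 at 13.5 FPKM. These levels are per length and within 1 library. The level of mt-Co1 over that of mt-Co3 was 2877 after LIF withdrawal, 618 in EB, 459 in ES 1 and 2129 in ES 2.

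**Figure D1:**
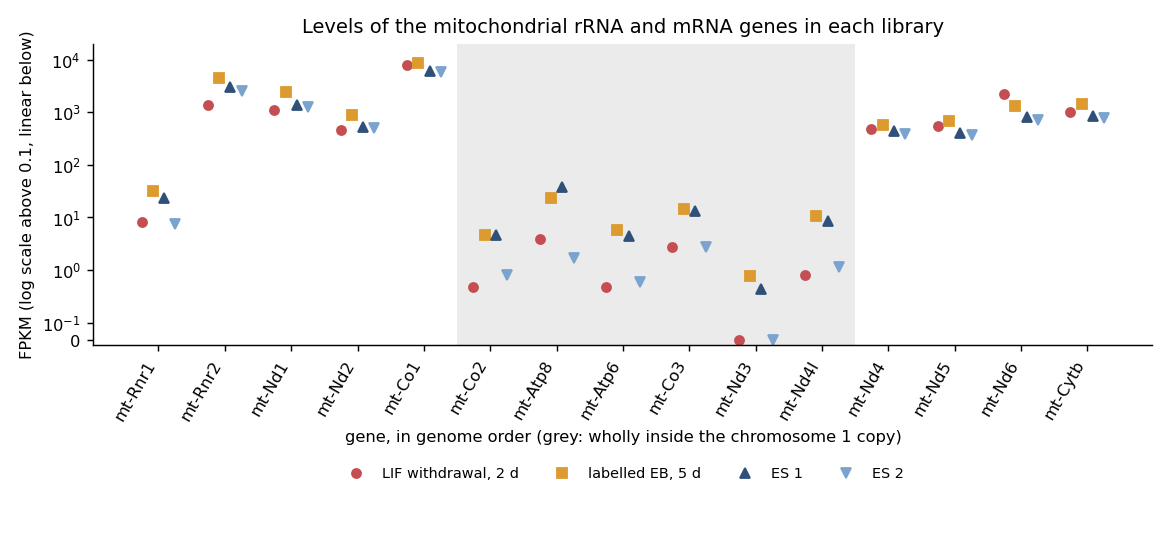
FPKM of the 2 rRNA and 13 mRNA genes of the mitochondrial genome in each library, in genome order (logarithmic axis above 0.1, linear below). Points are single libraries without error bars, and the grey band marks the 6 genes that lie wholly inside the stretch copied on chromosome 1. The grey genes lie between 0 and 38.1 FPKM, while mt-Co1 beside them lies between 5941 and 8846 FPKM.

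The low stretch coincides with a stretch of the mitochondrial genome that is annotated a second time on chromosome 1. The sequences of the 37 genes were searched in all annotated nuclear transcripts of GENCODE release M21 (at least 90% identity over at least 100 nt). In total 16 nuclear genes matched. Of these, 7 unprocessed pseudogenes on the minus strand of chromosome 1, between 24611535 and 24616197 in GRCm38, matched at over 99% identity, with 2 mismatches in 4140 aligned nt. Their order is that of the mitochondrial genes, and 5 of the 7 lie at exactly the same offset from the mitochondrial coordinates, the other pair 1 nt away. The copied stretch runs over 4653 nt of the mitochondrial genome, chrM:6390-11042. It holds the 6 low mRNA genes and 5 tRNA genes whole, and it also covers 31.3% of mt-Co1 and 63.6% of mt-Nd4. Gm28437, the copy of mt-Co3, and Gm28661, the copy of mt-Co2, had no mismatch over their full length.

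The first 60 bases of mt-Co3 (chrM:8607-8666, plus strand) and of Gm28437 (chr1:24613912-24613971, minus strand) show such an identical pair, which no read inside it could tell apart:
mt-Co3: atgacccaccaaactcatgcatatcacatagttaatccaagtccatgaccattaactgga
Gm28437: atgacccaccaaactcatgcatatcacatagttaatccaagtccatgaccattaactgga
The only difference between mt-Nd3 (chrM:9459-9518, plus strand) and Gm28438 (chr1:24613060-24613119, minus strand) is T3C, with positions counted from 1 at the first base of the mitochondrial gene and the differing base in capitals:
mt-Nd3: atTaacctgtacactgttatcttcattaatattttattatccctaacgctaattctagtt
Gm28438: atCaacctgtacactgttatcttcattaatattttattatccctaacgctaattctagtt
The part of mt-Co1 inside the stretch (chrM:6390-6449, plus strand) differs from Gm29216 (chr1:24616129-24616188, minus strand) only by A1066T, again in capitals:
mt-Co1: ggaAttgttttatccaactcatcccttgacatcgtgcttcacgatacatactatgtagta
Gm29216: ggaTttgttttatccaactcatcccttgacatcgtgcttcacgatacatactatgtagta

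Genes at 100 FPKM or more had no annotated nuclear copy, only older and more diverged copies, or a near-identical copy over part of their length. The copy of mt-Nd6 on chromosome 4, Gm11408, was 93.6% identical with 33 mismatches over 519 nt and no identical run above 39 nt. The first 60 bases of mt-Nd6 (chrM:14011-14070, minus strand) and of Gm11408 (chr4:80003855-80003914, minus strand) differ by A24G and T48C, shown in capitals as a contrast to the pairs above:
mt-Nd6: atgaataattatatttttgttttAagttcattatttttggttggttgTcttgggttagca
Gm11408: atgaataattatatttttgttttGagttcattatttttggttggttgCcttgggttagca
Of all 100-base windows of a gene, the share found letter for letter in an annotated nuclear transcript was 97.6% to 99.9% for mt-Co2, mt-Atp6, mt-Co3, mt-Nd3 and mt-Nd4l. It was 60.8% for mt-Nd4, 30.8% for mt-Co1, 3.20% for mt-Nd2 and 0% for mt-Nd1, mt-Nd5, mt-Nd6, mt-Cytb and mt-Rnr2. mt-Rnr1 and mt-Atp8 did not follow this order among annotated transcripts: neither had a shared window, and their levels were 7.35 to 31.3 FPKM and 1.71 to 38.1 FPKM. The nuclear genome itself was not searched, so a share of 0% does not show that a gene has no nuclear copy. How the authors' counting treated reads that match several places is not given in the sources used here, and the part of the copies in the low levels was not tested.

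mt-Atp8, a small subunit of ATP synthase, needs a further reservation. Only its last 43 bases, which it shares with mt-Atp6, the proton channel subunit, lie in an annotated copy (Gm10925), although its whole length lies inside the copied stretch. The end of mt-Atp8 (chrM:7890-7969, plus strand) is shown with the bases that also open mt-Atp6 in capitals:
mt-Atp8: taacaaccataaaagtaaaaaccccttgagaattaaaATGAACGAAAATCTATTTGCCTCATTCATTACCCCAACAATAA
The gene is 204 nt long. The smallest step of the deposited values in genes of 450 to 850 nt showed that the authors' values divide by the gene length less 166 to 213 nt, depending on the library. For a gene of 204 nt almost no length remains, so its level is the least certain of the 15.

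The copies on chromosome 1 were low after LIF withdrawal and in ES 2, and so were mt-Co2, mt-Atp6, mt-Co3, mt-Nd3 and mt-Nd4l, but not mt-Co1 and mt-Nd4, which the stretch covers in part and which lay above both ES libraries after LIF withdrawal (below them with every library scaled to the same FPKM sum). Gm28437 was at 4.32 FPKM after LIF withdrawal, 33.7 FPKM in EB, 27.0 FPKM in ES 1 and 2.67 FPKM in ES 2, and mt-Co3 was at 2.78 FPKM after LIF withdrawal, 14.3 FPKM in EB, 13.5 FPKM in ES 1 and 2.79 FPKM in ES 2. Gm28661 was at 1.78 FPKM after LIF withdrawal, 14.0 FPKM in EB, 8.77 FPKM in ES 1 and 1.48 FPKM in ES 2. mt-Co2 was at 0.470 FPKM after LIF withdrawal, 4.71 FPKM in EB, 4.73 FPKM in ES 1 and 0.806 FPKM in ES 2. In each pair EB and ES 1 were high and LIF withdrawal and ES 2 low, so the ES libraries do not group together. The split was not confined to chromosome 1. Gm13340, a diverged copy of the whole of mt-Co1 on chromosome 2, was at 1.07 FPKM after LIF withdrawal, 16.5 FPKM in EB, 12.6 FPKM in ES 1 and 0.734 FPKM in ES 2. The diverged copies Gm13339, Gm13341, Gm4076, Gm11407, Gm11408 and Gm11410, all at 3.84 FPKM or less, split in the same way, while Gm11512 and Gm43743 did not. The 6 low mRNA genes summed to 8.35 FPKM after LIF withdrawal and 59.7 FPKM in EB, against 69.9 FPKM in ES 1 and 7.02 FPKM in ES 2. mt-Nd4l, a complex I subunit, was at 0.812 FPKM after LIF withdrawal and 10.6 FPKM in EB, against 8.69 FPKM in ES 1 and 1.12 FPKM in ES 2. mt-Atp6 was at 0.474 FPKM after LIF withdrawal and 5.80 FPKM in EB, against 4.51 FPKM in ES 1 and 0.590 FPKM in ES 2. mt-Atp8 had the widest gap between the ES libraries, with 3.82 FPKM after LIF withdrawal and 23.5 FPKM in EB, against 38.1 FPKM in ES 1 and 1.71 FPKM in ES 2. mt-Nd3, another complex I subunit, was listed at 0 after LIF withdrawal and in ES 2 and stood at 0.777 FPKM in EB and 0.441 FPKM in ES 1, about 3.4 and 2.3 fragments.

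**Figure D2:**
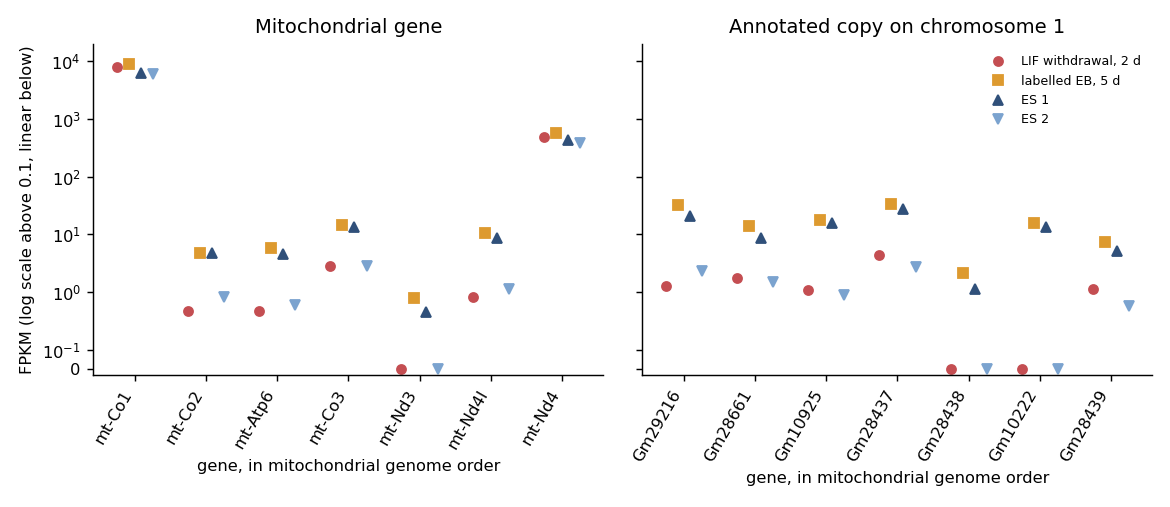
FPKM of the 7 mitochondrial genes with a near-identical annotated copy on chromosome 1 (left) and of those copies in the same order (right), per library (logarithmic axis above 0.1, linear below; points are single libraries). EB and ES 1 lie above LIF withdrawal and ES 2 in all 7 copies and in mt-Co2, mt-Atp6, mt-Co3, mt-Nd3 and mt-Nd4l.

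mt-Rnr1, the rRNA of the small mitochondrial ribosomal subunit, showed the same split, with 8.36 FPKM after LIF withdrawal and 31.3 FPKM in EB, against 23.7 FPKM in ES 1 and 7.35 FPKM in ES 2. Of the 14 members that reached 1 FPKM in some library, 6 were at least 2-fold higher in ES 1 than in ES 2 on the log2(FPKM + 1) scale, namely mt-Rnr1, mt-Co2, mt-Atp8, mt-Atp6, mt-Co3 and mt-Nd4l. Over all 15676 genes that reached it 3.71% were. A fold change of these 6 genes against the ES mean is set by which ES library is used: mt-Co3 after LIF withdrawal was at 0.206 times ES 1 and 0.995 times ES 2, and in EB at 1.06 times ES 1 and 5.13 times ES 2. No change between conditions is therefore read from mt-Rnr1 or from the genes of the copied stretch.

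The comparisons with ES cells rest on the 8 genes at 100 FPKM or more in every library. For these the ES libraries were close, with ES 1 at 1.04 to 1.18 times ES 2 and above it in all 8, against 40.7% of all tested genes. The lowest fragment number behind any of these values was about 6615, for mt-Nd6 in ES 2. mt-Co1, at chrM:5328-6872, ranked among the 5 highest of all genes in each library. The 8 genes were tested with limma over all 15676 genes that reached 1 FPKM in some library. A gene was called at an adjusted p under 0.05 and a log2 fold change of at least 1 in size. Only the ES pair gave a replicate spread, which leaves 1 residual degree of freedom per gene before limma shares information across genes.

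After 2 days without LIF, the high genes nearest the start of the plus-strand transcript lay below both ES libraries. The low gene mt-Rnr1, still nearer to that start, lay between the ES libraries. mt-Nd6 on the other strand lay well above both ES libraries. mt-Rnr2 (ENSMUSG00000064339.1, chrM:1094-2675, plus strand), the rRNA of the large ribosomal subunit, was at 1408 FPKM after LIF withdrawal, against 3068 FPKM in ES 1 and 2592 FPKM in ES 2. Its level was 0.497 times the ES mean (SE of the log2 change 0.26, limma adjusted p = 0.164). mt-Nd1 (chrM:2751-3707) and mt-Nd2 (chrM:3914-4951), membrane-arm subunits of complex I, were lower by less. mt-Nd1 was at 1104 FPKM after LIF withdrawal, against 1382 FPKM in ES 1 and 1239 FPKM in ES 2. mt-Nd2 was at 455 FPKM after LIF withdrawal, against 534 FPKM in ES 1 and 494 FPKM in ES 2. Both lay below both ES libraries, at 0.799 to 0.919 times their levels, and neither was called (log2 changes of -0.24 and -0.18).

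The high genes farther along the plus strand lay above both ES libraries after LIF withdrawal. That direction turned for mt-Co1, mt-Nd4, mt-Nd5 and mt-Cytb when every library was scaled to the same FPKM sum. It held with libraries scaled by their summed nuclear protein-coding level (log2 changes of 0.42, 0.25, 0.54 and 0.36). mt-Co1, the catalytic subunit of cytochrome c oxidase, was at 7989.7 FPKM after LIF withdrawal, against 6188 FPKM in ES 1 and 5941 FPKM in ES 2 (log2 change 0.40, SE 0.61, limma adjusted p = 0.680). That SE depends on a variance trend on mean expression, and without the trend the limma adjusted p of mt-Co1 was 0.0863. mt-Nd4 and mt-Nd5 encode further membrane-arm subunits of complex I. mt-Nd4 was at 481 FPKM after LIF withdrawal, against 434 FPKM in ES 1 and 389.6 FPKM in ES 2. mt-Nd5 was at 542 FPKM after LIF withdrawal, against 397 FPKM in ES 1 and 364 FPKM in ES 2 (log2 change 0.51, SE 0.09, limma adjusted p = 0.119). mt-Cytb, the cytochrome b gene of complex III, was at 1008 FPKM after LIF withdrawal, against 837 FPKM in ES 1 and 768 FPKM in ES 2 (log2 change 0.33, limma adjusted p = 0.212). None of these 4 genes was called.

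mt-Nd6 stood apart among the 8. The gene (ENSMUSG00000064368.1, chrM:13552-14070), a complex I subunit and the only mRNA gene on the minus strand, was at 2219.9 FPKM after LIF withdrawal, against 824 FPKM in ES 1 and 708 FPKM in ES 2. That was 2.69 times ES 1 and 3.14 times ES 2, the highest ratios of the 8, and limma gave it a log2 change of 1.54 with an SE of 0.17 and an adjusted p of 0.0834. Its annotated overlap with mt-Nd5 on the opposite strand is 14 nt, but the plus-strand transcript of the genome runs opposite its whole length. In the LIF withdrawal library, 16% of 6927 tested genes with any gene body on the opposite strand were at least 2-fold above both ES libraries, against 3.05% of 8687 genes with none. In EB these shares were 0.967% and 2.14%. The labels do not say whether the counting used strand, and the part of opposite-strand reads in the level of mt-Nd6 was not tested.

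Over all genes limma called 0 of the 14 tested members after LIF withdrawal and 7.67% of all tested genes. At unadjusted p under 0.05 there were 2 members, mt-Nd5 and mt-Nd6, against 37.2% of all tested genes. The lowest adjusted p of a member was that of mt-Nd6, and it was also the only member at least 2-fold above both ES libraries, as 8.84% of all tested genes were. With every library scaled to the same FPKM sum its log2 change was 0.90 and no member was at least 2-fold above both. The median log2 change of the 14 was -0.43, against 0.04 over all genes tested, and the low genes that differ between the ES libraries weigh on that median. Among the 8 high genes, 5 lay above both ES libraries and 3 below both, against 48.4% and 36.6% of all tested genes. When only genes of at least 1000 nt that are free of opposite-strand genes were fitted together with the members, limma called mt-Nd6 higher (adjusted p = 0.0239) and mt-Rnr2 lower (adjusted p = 0.0415), in a set where 3.06% of genes were called. The SE of the log2 change was 0.14 for mt-Nd6 and 0.17 for mt-Rnr2 in that fit. The change of mt-Rnr2 lies at the fold threshold itself, and both calls rest on the set of genes fitted.

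The ratio of LIF withdrawal to ES cells followed the order of the 7 high plus-strand genes along the genome only in part. Spearman's rho between the distance of a gene from the start of mt-Tf, the first gene, and the log2 ratio was 0.82 over the 7 genes against either ES library, with Pearson's r of 0.77 against ES 1 and 0.80 against ES 2. For EB the rho was 0.07 and for ES 1 over ES 2 it was -0.43. The genes share their libraries and differ in length and in nuclear copies, so these are descriptions of 4 libraries. The steps were uneven: the ratio to ES 1 was 0.459 for mt-Rnr2, 0.799 for mt-Nd1, 0.851 for mt-Nd2, 1.29 for mt-Co1, 1.11 for mt-Nd4, 1.37 for mt-Nd5 and 1.20 for mt-Cytb.

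**Figure D3:**
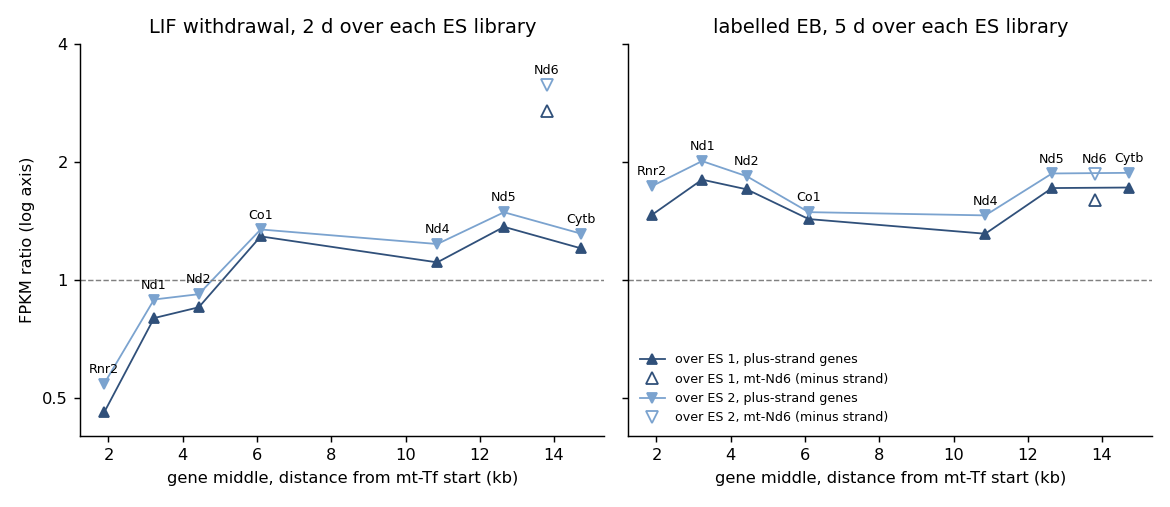
FPKM ratio of LIF withdrawal (left) and of the library labelled EB (right) to each ES library for the 8 genes at 100 FPKM or more in every library, on a logarithmic axis against the distance of the gene's middle from the start of mt-Tf in kb. Filled points joined by lines are plus-strand genes and open points are mt-Nd6. After LIF withdrawal the ratios run from 0.459 for mt-Rnr2 to 3.14 for mt-Nd6, while in EB they lie between 1.31 and 2.01 (with every library scaled to the same FPKM sum, mt-Co1, mt-Nd4, mt-Nd5 and mt-Cytb after LIF withdrawal turn below ES).

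In the library labelled EB all 8 high genes were above both ES libraries, at 1.31 to 1.80 times ES 1 and 1.46 to 2.01 times ES 2. mt-Nd1 was highest in these ratios, with 2489.9 FPKM in EB, against 1382 FPKM in ES 1 and 1239 FPKM in ES 2 (log2 change 0.93, SE 0.15, limma adjusted p = 0.159). mt-Nd4 was lowest, with 569 FPKM in EB, against 434 FPKM in ES 1 and 389.6 FPKM in ES 2 (log2 change 0.47, SE 0.11, limma adjusted p = 0.196). In this library mt-Nd6 lay within the range of the plus-strand genes, at 1.60 times ES 1 and 1.87 times ES 2: mt-Nd6 was at 1320.5 FPKM in EB, against 824 FPKM in ES 1 and 708 FPKM in ES 2.

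The other high genes of the EB library showed similar ratios. mt-Rnr2 was at 4499 FPKM in EB, against 3068 FPKM in ES 1 and 2592 FPKM in ES 2 (log2 change 0.67, SE 0.26). mt-Nd2 was at 909 FPKM in EB, against 534 FPKM in ES 1 and 494 FPKM in ES 2 (log2 change 0.82, SE 0.09, limma adjusted p = 0.141). Both lay above the higher ES library by more than the ES libraries differed from each other. mt-Co1 was at 8846 FPKM in EB, against 6188 FPKM in ES 1 and 5941 FPKM in ES 2. mt-Nd5 was at 680.2 FPKM in EB, against 397 FPKM in ES 1 and 364 FPKM in ES 2 (log2 change 0.84, SE 0.09). mt-Cytb was at 1441 FPKM in EB, against 837 FPKM in ES 1 and 768 FPKM in ES 2 (log2 change 0.84, SE 0.11). These 3 genes, too, lay above both ES libraries in EB, as 37.6% of all tested genes did, while 42.9% lay below both.

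Over all genes limma called 0 of the 14 tested members in EB and 0.396% of all tested genes. At unadjusted p under 0.05 there were 4 members (mt-Nd1, mt-Nd2, mt-Nd5 and mt-Cytb), a share near the 27.7% of all tested genes. Of the 14, 12 lay above both ES libraries, against 37.6% of all tested genes; the exceptions were mt-Co2 and mt-Atp8 of the copied stretch. None was at least 2-fold above both, as 1.63% of all tested genes were, or at least 2-fold below both, as 0.734% were. The median log2 change of the 14 was 0.84, against -0.01 over all genes tested. The low genes that differ between the ES libraries enter both this median and the count of 12. The fit of genes free of opposite-strand genes took in the members without applying its length and strand rules to them. In that set 2.3% of genes were called. It called 0 members because no change of a member with an adjusted p under 0.05 reached 1 on the log2 scale. The adjusted p there was 0.0431 for mt-Nd1, 0.0366 for mt-Nd2, 0.0362 for mt-Nd5 and 0.0404 for mt-Cytb.

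Summed over the 13 mRNA genes, the level was 13807 FPKM after LIF withdrawal and 16315 FPKM in EB, against 10665 FPKM in ES 1 and 9911 FPKM in ES 2. That is 1.34 times the ES mean of 10288 ± 534 FPKM (SD, n = 2) after LIF withdrawal and 1.59 times in EB, both outside the ES pair. The first turned to 0.861 with every library scaled to the same FPKM sum. In the LIF withdrawal library 1 gene of 107 nt held 37.7% of that sum. With libraries scaled by their summed nuclear protein-coding level the ratios were 1.364 after LIF withdrawal and 1.642 in EB. The 7 mRNA genes outside or partly inside the copied stretch made up nearly all of the summed mRNA level, with 1.49% of all fragments after LIF withdrawal and 1.84% in EB, against 1.22% in ES 1 and 1.17% in ES 2. The 2 rRNA genes summed to 1416 FPKM after LIF withdrawal, 0.498 times the ES mean, and to 4530.5 FPKM in EB, 1.59 times the ES mean of 2845 ± 348 FPKM (SD, n = 2). Whether rRNA was removed before sequencing is not given in the sources used here, and a difference in such a step cannot be told apart from one in the cells.

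The make-up of the summed level of the 7 mRNA genes differed most from ES cells after LIF withdrawal. mt-Co1 made up 57.9% after LIF withdrawal and 54.4% in EB, against 58.4% in ES 1 and 59.99% in ES 2. mt-Nd6 made up 16.1% after LIF withdrawal and 8.12% in EB, against 7.78% in ES 1 and 7.14% in ES 2. mt-Nd1 made up 7.999% after LIF withdrawal and 15.3% in EB, against 13.04% in ES 1 and 12.5% in ES 2. These shares do not depend on how a library is scaled. The order of the mRNA levels in ES 1 was mt-Co1, mt-Nd1, mt-Cytb, mt-Nd6, mt-Nd2, mt-Nd4 and mt-Nd5, and ES 2 had the same order; mt-Cytb and mt-Nd6 as well as mt-Nd4 and mt-Nd5 were closer to each other than the ES libraries were for one of the pair. After LIF withdrawal mt-Nd6 ranked second, and mt-Nd2 was last.

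**Figure D4:**
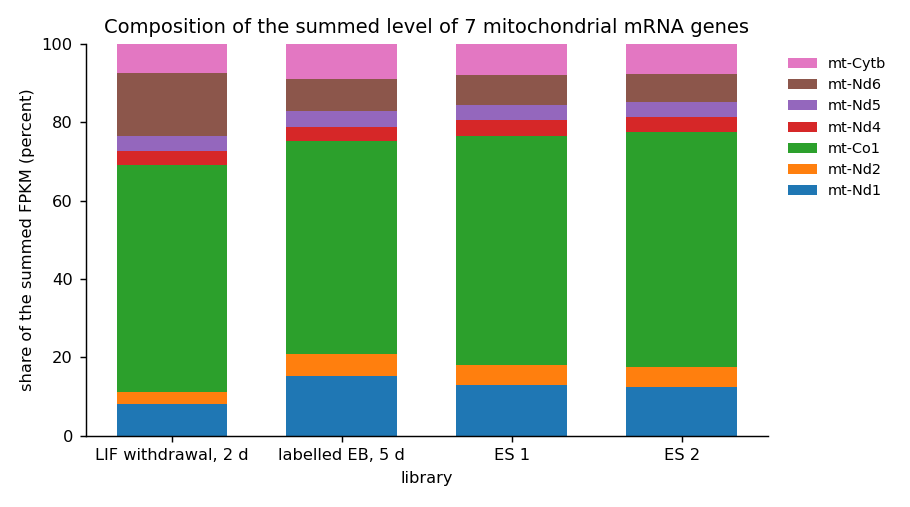
Share of each of 7 mRNA genes in their summed FPKM, in percent, for each library (stacked bars, 1 library each, no error bars). mt-Nd6 takes 16.1% after LIF withdrawal and 7.14% to 8.12% in the other 3 libraries.

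EB and LIF withdrawal had 1 library each, so their difference has no replicate check. Of the 14 tested members, 8 were at least 2-fold higher in EB than after LIF withdrawal on the log2(FPKM + 1) scale (4.76% of all tested genes) and 0 at least 2-fold lower (10.1%). Of these 8, only mt-Rnr2, at 3.20 times its level after LIF withdrawal, and mt-Nd1, at 2.26 times, belong to the 8 high genes. mt-Nd2 was at 2.00 times (just short on the log2(FPKM + 1) scale), mt-Co1 at 1.11 times and mt-Nd6 at 0.595 times its level after LIF withdrawal.

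Nuclear genes that make, process and translate these transcripts showed no called change. The list of 52 symbols for mitochondrial transcription and RNA processing matched 50 genes of the table. Of these, 49 passed the filter, and limma called 0 of them in either comparison. Of all tested genes it called 7.67% after LIF withdrawal and 0.396% in EB, so the 0 in EB is near the share of all genes. After LIF withdrawal 15 were at unadjusted p under 0.05 (8 higher, 7 lower), with a list median of 0.04 beside 0.04 over all genes. In EB 19 were (1 higher, 18 lower), with a list median of -0.19 beside -0.01. Of all tested genes, 37.2% after LIF withdrawal and 27.7% in EB were at unadjusted p under 0.05. The most abundant members were Tbrg4, a stability factor of mitochondrial mRNAs, and Ptcd3, a protein of the mitochondrial ribosome. Tbrg4 was at 145.0 FPKM after LIF withdrawal and 158 FPKM in EB, against 165 FPKM in ES 1 and 179 FPKM in ES 2. Ptcd3 was at 178 FPKM after LIF withdrawal and 112 FPKM in EB, against 132 FPKM in ES 1 and 151 FPKM in ES 2.

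The 20 genes of the enzymes that charge mitochondrial tRNAs and the 78 mitochondrial ribosomal protein genes all passed the filter. Of either list limma called 0 in either comparison, against 7.67% of all tested genes after LIF withdrawal and 0.396% in EB. Of the charging enzymes 6 were at unadjusted p under 0.05 after LIF withdrawal and 3 in EB, with list medians of -0.02 and -0.11. The most abundant were Kars and Gars, the lysine and glycine enzymes, which also serve the cytosol. Kars was at 165 FPKM after LIF withdrawal and 136 FPKM in EB, against 145 FPKM in ES 1 and 151 FPKM in ES 2. Gars was at 128 FPKM after LIF withdrawal and 108 FPKM in EB, against 124 FPKM in ES 1 and 133 FPKM in ES 2. Of the ribosomal protein genes 30 were at unadjusted p under 0.05 after LIF withdrawal (25 lower) and 29 in EB (27 lower), with list medians of -0.16 and -0.17. Over all 15676 genes, 5837 were at unadjusted p under 0.05 after LIF withdrawal (2055 lower) and 4338 in EB (2381 lower). The most abundant were Mrpl17 and Mrpl12, proteins of the large subunit. Mrpl12 was at 124 FPKM after LIF withdrawal and 104 FPKM in EB, against 118 FPKM in ES 1 and 122 FPKM in ES 2. Mrpl17 was at 158 FPKM after LIF withdrawal and 84.5 FPKM in EB, against 99.8 FPKM in ES 1 and 161 FPKM in ES 2, so its ES libraries differed from each other about as much as EB and LIF withdrawal did. In EB the medians of these 3 nuclear lists lay below that of all genes, while the 8 high mitochondrial genes lay above both ES libraries.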

How the data were processed

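Values are FPKM that the authors deposited, 1 per gene and library, for 47633 genes in 4 libraries. The tools Trimmomatic 0.36, STAR and Cufflinks and the mm10 build are named per the submitters' processing notes. Options, annotation and strandedness are not stated there. Symbols, positions and sequences came from GENCODE mouse release M21 on GRCm38 (the sequence of mm10), to which 47219 identifiers matched without their version.

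Genes that reached 1 FPKM in some library entered the test, on log2(FPKM + 1), a scale that understates changes of low genes; it was run with limma 3.58.1 in R 4.3.3. The model held all 4 libraries, with a variance trend on mean expression and Benjamini-Hochberg adjustment over all 15676 genes. The calculation was also run on simulated data, for the EB comparison and only for genes of at least 1000 nt free of opposite-strand genes. That run does not cover the fit over all 15676 genes. Depth used genes with 1 transcript and 3000 nt or more, where the modal smallest product of FPKM and length was taken as 1 fragment. Fragment numbers use the gene length less the 166 to 213 nt found from genes of 450 to 850 nt, and are approximate. Nuclear copies were sought with blastn 2.17.0. Python 3.11.15 was used for the rest.

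All 37 members are accounted for, with the mRNA and rRNA genes named and, from each nuclear list, the called or the 2 most abundant genes. The members and lists were chosen with earlier results of these data known. Alternatives changed the pseudocount, the filter, the trend, the genes fitted, the scaling and the ES library.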

Additional observations from a re-analysis of the deposited data

Results flagged for a closer look

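LIF withdrawal lay below both ES libraries and EB above both in 6 genes, and this opposite movement was not tested. The difference between the log2 changes (EB minus LIF withdrawal) was 1.68 for mt-Rnr2, 1.17 for mt-Nd1 and 1.00 for mt-Nd2. It was 2.21 for mt-Atp6, 2.02 for mt-Co3 and 2.68 for mt-Nd4l, genes of the copied stretch in which ES 1 and ES 2 differ several-fold. After LIF withdrawal mt-Co3 was at 0.995 times ES 2, and mt-Nd4l and mt-Atp6 rested on about 1.2 and 4.0 fragments. No change between conditions is read from these genes. Over all 15676 tested genes 10.6% showed this pattern, and both comparisons share the ES libraries.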

How the results depend on the processing

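With genes of at least 1000 nt free of opposite-strand genes plus the members, 2 members were called after LIF withdrawal, against 0 over all genes. mt-Nd6 (1.54) and mt-Rnr2 were the ones, with limma adjusted p of 0.0239 and 0.0415. With the same FPKM sum in every library the log2 change of mt-Nd6 was 0.90. The adjusted p of these genes was never under 0.05 with the other pseudocount, filter, trend and scalings. Leaving out an ES library left no test, and the members at least 2-fold from the remaining one numbered 1 to 8 after LIF withdrawal and 0 to 7 in EB. Without ES 2 it was 8 after LIF withdrawal, and without ES 1 it was 7 in EB. Apart from mt-Rnr2 and mt-Nd6 among the 8 and mt-Nd1 among the 7, these were mt-Rnr1 and genes of the copied stretch, in which ES 1 and ES 2 differ. No share of all genes stands beside these counts. Without ES 1, mt-Atp8 (0.83) and mt-Rnr1 (0.16) turned higher after LIF withdrawal (-3.02 and -1.4 without ES 2). Without ES 2, mt-Atp8 (-0.67) and mt-Co2 (-0.01) turned lower in EB (3.18 and 1.66 without ES 1).

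Scaling every library to the same FPKM sum moved the median log2 change of all genes to -0.51 after LIF withdrawal and -0.08 in EB; 1 gene of 107 nt held 37.7% of the FPKM sum of the LIF withdrawal library. There mt-Co1 (-0.24), mt-Cytb (-0.31), mt-Nd4 (-0.41) and mt-Nd5 (-0.13) turned lower after LIF withdrawal, though less so than the median gene. The summed mRNA level became 0.861 times the ES mean after LIF withdrawal and 1.482 times in EB, and the summed rRNA level 0.32 times after LIF withdrawal. The mRNA ratio was 1.295 to 1.393 after LIF withdrawal and 1.53 to 1.646 in EB over the single ES libraries, and 0.458 to 0.545 and 1.465 to 1.743 for the rRNA genes. Without the 6 genes of the copied stretch, a choice made after seeing the data, the mRNA ratios were 1.346 and 1.586. Of 98 refitted member values per comparison, 92 after LIF withdrawal and 98 in EB kept their direction and their side of the threshold; of 28 values against a single ES library, with no test, 26 in each comparison kept their direction. The 3 nuclear lists had 0 calls under every setting run. The tRNA genes, at 0 throughout, gave no ratio. No paired analysis was possible because only the ES group has more than 1 library. The lowest estimates, for mt-Nd3, rest on 0 to 3.4 fragments.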
